A study of Mus musculus with 2 samples.

Results

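The genes described here are 9 members of the prostanoid pathway, measured in retinoid-containing lung cells: *Ptgs1*, *Ptgs2*, *Ptgis*, *Ptges*, *Ptgds*, *Ptgir*, *Ptger2*, *Ptger4* and *Hpgd*. They were chosen by name as rows of the deposited matrices, which list 32285 genes, and all 9 were found in both matrices. Wild-type C57BL/6 mice were 3 months old and, per the study's methods, male, and the submitters give no treatment or other allele for them. Their lungs were digested with pronase and collagenase, and live single cells were sorted by the light that stored retinoids emit under ultraviolet excitation, and called UV-positive. The cells form 1 condition and were sequenced as 2 single-cell libraries on separate occasions, library 1 and library 2, and the number of mice behind each library is not given. No reporter or Cre was used, so the gate itself is what limits the cells seen: it holds whatever lung cells emitted in that window.

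Prostanoids are short-lived lipid signals made from arachidonic acid, which phospholipases release from membranes. The cyclooxygenases encoded by *Ptgs1* and *Ptgs2* turn arachidonic acid into prostaglandin H2, and a terminal synthase then sets the product: prostacyclin from the synthase encoded by *Ptgis*, prostaglandin E2 from that of *Ptges*, prostaglandin D2 from that of *Ptgds*. The products act on G protein-coupled receptors of nearby cells, of which IP (*Ptgir*) binds prostacyclin and EP2 and EP4 (*Ptger2*, *Ptger4*) bind prostaglandin E2, all of them raising cyclic AMP. Prostacyclin is best known as a dilator of blood vessels and an inhibitor of platelets. The lung is also a site where prostaglandins are cleared from the blood, through uptake by the transporter of *Slco2a1* and oxidation by 15-hydroxyprostaglandin dehydrogenase, the product of *Hpgd*.

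Levels were compared between 5 groups of cells that a count rule defined. A cell joined a class when 3 or more UMIs (unique molecular identifiers, each counting 1 captured transcript) fell on that class's 3 genes and no other class reached this, with *Col1a2*, *Mfap4* and *Pdgfra* for stroma, *Cdh5*, *Pecam1* and *Egfl7* for endothelium, *Epcam*, *Cdh1* and *Lamp3* for epithelium, and *Ptprc*, *Laptm5* and *Cd52* for immune cells. Stromal cells without a UMI of *Dcn* are called alveolar fibroblasts (5805 cells in library 1 and 5545 in library 2), and those with 3 or more are called adventitial fibroblasts (1017 and 998). The endothelial group held 56 and 360 cells, the epithelial group 930 and 101, and the immune group 266 and 334. Of 9634 and 9988 cells kept, 317 and 115 fell in no class and 420 and 1640 in more than 1, 23 barcodes occurred in both libraries, and median UMIs ran from 1899.5 in the endothelial cells of library 1 to 13627 in the epithelial cells of library 2.

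Lists of 6 markers each that the rule did not use went with the labels of the classes. The summed level of the stromal list was 11692 to 12421 CPM (the group's UMIs of a gene over all its UMIs in the library, on the usual per-million scale) in both fibroblast groups and 122 to 778 CPM elsewhere. The endothelial list stood at 14331 and 11559 CPM in endothelial cells and at 1.27 to 53.1 CPM in the other groups. The adventitial label rests on fewer genes: *Pi16* (204 and 46.5 CPM against 0.597 and 0.309) and *Col14a1* (284 and 224 against 32.6 and 33.0) went with it, *Clec3b* and *Mfap5* were also present in the group called alveolar, and *Dpp4* was at 0.474 and 0.0863 CPM in the group called adventitial. *Ly6a* was at 188 and 86.9 CPM there against 3.97 and 6.32 CPM in alveolar fibroblasts, but at 3622 and 3420 CPM in endothelial cells. The summed adventitial list was higher in endothelial cells (3806 and 3542 CPM) than in adventitial fibroblasts (3739 and 1851 CPM).

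The members differed in the cells that held them. The synthase genes *Ptgis* and *Ptges* and the receptor gene *Ptger2* were highest in fibroblasts, *Hpgd* in endothelial cells, and *Ptgs1*, *Ptgs2* and *Ptger4* were present in more than 1 kind of cell. Differences were tested with edgeR's quasi-likelihood test on the summed UMIs of each group and library, with the library as a block and n = 2 libraries a group, and all adjusted p-values below are from that model, Benjamini-Hochberg adjusted over 13326 genes unless another fit is named. *Ptgds* did not pass the filter on low counts, and the other 8 members did. Since a member can pass that filter through 1 group alone, the counts of members are given as a description beside the share of all genes that were called.

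**Figure D1:**
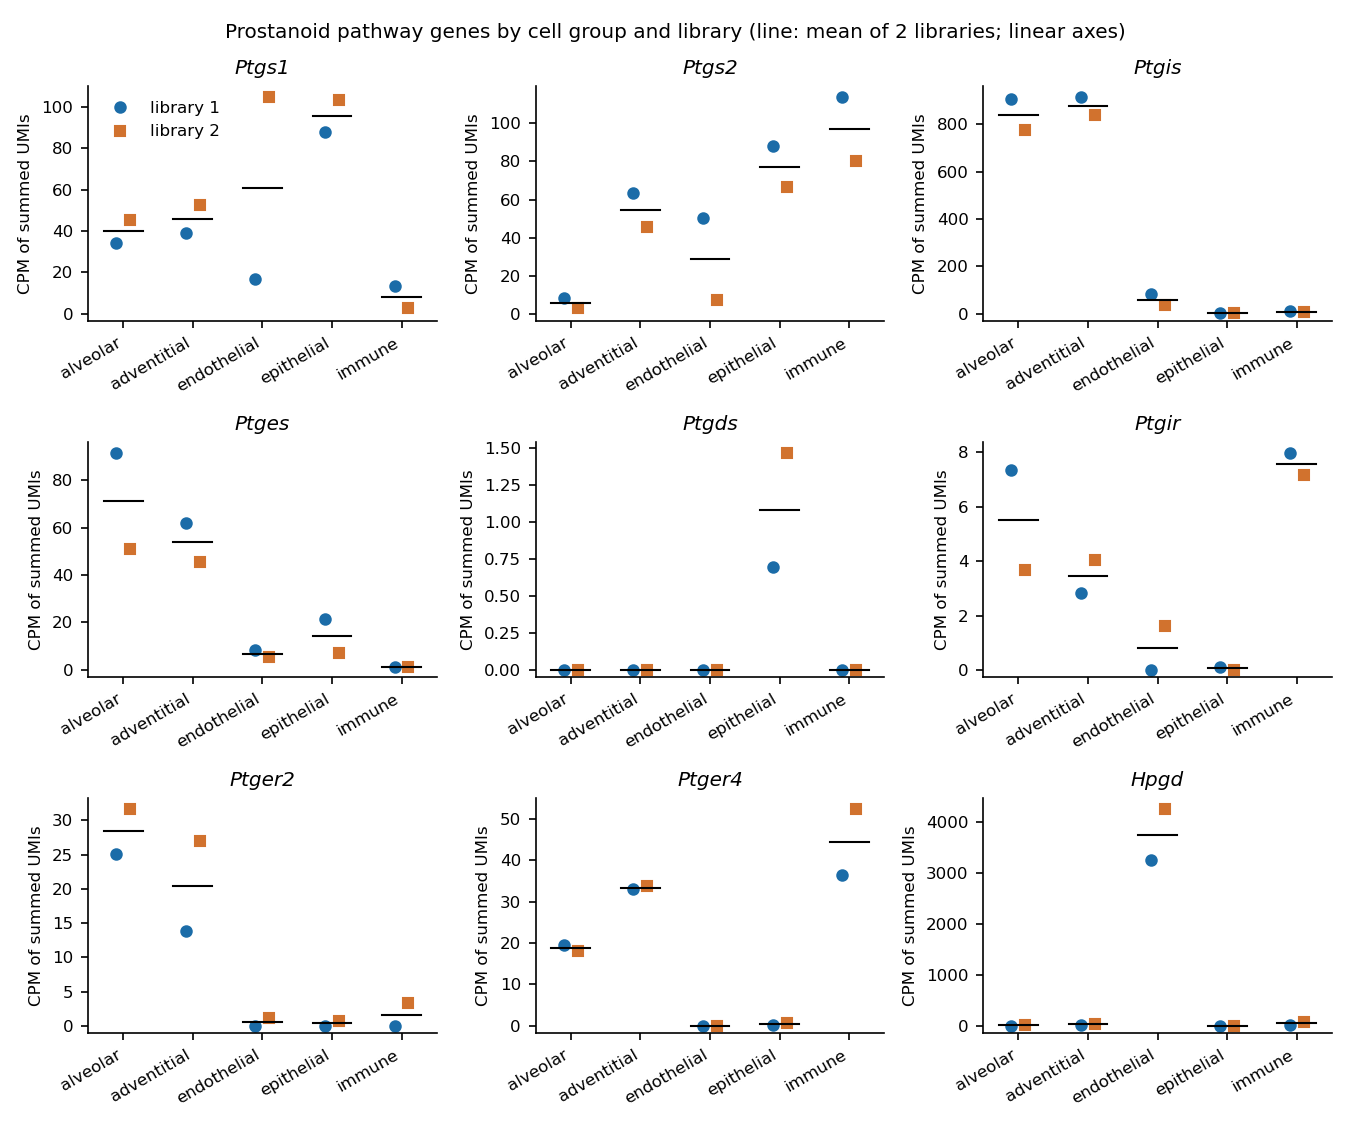
Level of each of the 9 genes (y axis, CPM of summed UMIs, linear, its own scale in each panel) in the 5 cell groups (x axis), with a circle for library 1, a square for library 2 and a line at their mean. *Hpgd* stands at 3246 and 4252 CPM in endothelial cells and under 83 CPM in every other group, while *Ptgis* stands at 776 to 916 CPM in both fibroblast groups.

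*Ptgs1* (ENSMUSG00000047250, chr2:36230426-36252272, forward strand, GRCm38) encodes the cyclooxygenase usually present at a steady level. It was measured at 34.3 and 45.5 CPM in alveolar fibroblasts of libraries 1 and 2, at 39.0 and 52.5 CPM in adventitial fibroblasts, at 88.0 and 103 CPM in epithelial cells and at 13.7 and 2.76 CPM in immune cells. Its endothelial level was 16.7 CPM in library 1, from 2 UMIs, and 105 CPM in library 2, from 194 UMIs. Epithelial cells were thus above both fibroblast groups in each library and immune cells below them, while the endothelial libraries fell on either side of the fibroblasts. The epithelial level was higher than the alveolar one by 1.83 on the log2 scale (SE 0.30, adjusted p = 6.2e-05), and the immune level differed from it by -2.36 (SE 0.51, adjusted p = 0.00075). Without library 1 the immune difference was -3.81 and without library 2 it was -1.0, and the call was lost with the DESeq2 Wald test (adjusted p = 0.0608). The fibroblast groups did not differ beyond their spread (log2 0.22, SE 0.29, adjusted p = 0.777).

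The epithelial and endothelial levels of *Ptgs1* differed by 0.96 (SE 0.37, adjusted p = 0.0453), a call that ended without the library block (adjusted p = 0.19) and in 4 other alternatives, and that was 3.40 without library 2, where the endothelial level rests on 2 UMIs. In alveolar fibroblasts *Ptgs1* stood at 39.0% and 44.0% of its epithelial level, where 6 epithelial markers, surfactant and keratin genes among them, stood at 0.0618% to 1.01% of theirs. Fibroblast *Ptgs1* thus lay above the range of these markers in both libraries. After each cell was thinned to 2000 UMIs, a *Ptgs1* UMI was present in 6.07% and 8.25% of alveolar fibroblasts. The thinned shares were 14.4% and 22.8% for epithelial cells but 2.70% and 0% for immune cells.

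*Ptgs2* (ENSMUSG00000032487, chr1:150100031-150108227, forward strand) encodes the cyclooxygenase that is switched on by inflammatory and mitogenic signals. It was at 8.24 and 3.17 CPM in alveolar fibroblasts and at 63.7 and 45.7 CPM in adventitial fibroblasts. Its level was 88.0 and 66.6 CPM in epithelial cells, 114 and 80.0 CPM in immune cells, and 50.2 and 7.03 CPM in endothelial cells, there from 6 and 13 UMIs. Alveolar fibroblasts were the lowest group in each library, with no overlap with the adventitial, epithelial or immune group. Adventitial fibroblasts exceeded them by 3.40 on the log2 scale (SE 0.26, adjusted p = 1.2e-07), about 10.6-fold. Epithelial cells exceeded them by 4.39 (SE 0.27, adjusted p = 2.0e-10) and immune cells by 4.48 (SE 0.28, adjusted p = 2.6e-10), and these did not differ from each other (log2 0.08, SE 0.26, adjusted p = 0.835).

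The differences of *Ptgs2* from adventitial fibroblasts were smaller, at 0.99 for epithelial cells (SE 0.25, adjusted p = 0.0026, and 0.17 without the library block) and 1.08 for immune cells (SE 0.25, adjusted p = 0.0016, and 0.148 without it). Before thinning, only 1.14% and 0.667% of alveolar fibroblasts held a *Ptgs2* UMI. The 1% with the most *Ptgs2* held 96.4% and 100.0% of these UMIs. With so few positive cells, that share is set almost wholly by detection and cannot show how evenly the UMIs were spread. Positive cells held 2.92 and 3.32 UMIs on average, and the most in 1 cell was 20 and 27, so their counts were uneven. Thinned to 2000 UMIs, 0.730% and 0.400% of alveolar fibroblasts held a *Ptgs2* UMI (exact 95% intervals 0.514% to 1.0% and 0.251% to 0.605%), against 6.50% and 5.41% of adventitial fibroblasts (5.05% to 8.21% and 4.09% to 7.0%). Intervals here cover counting error only.

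*Ptgs2* is itself an early response gene, so 13 such genes (*Fos*, *Jun*, *Egr1* and others) were set beside it. Their summed level was 29519 and 19260 CPM in alveolar fibroblasts and 27496 and 20202 CPM in adventitial ones, and 5950 to 10366 CPM in epithelial and immune cells, so the groups with the most *Ptgs2* had the lowest sums of the list. Within a group, cells with *Ptgs2* held more of these transcripts. Per 2000 UMIs the median was 69.0 in alveolar fibroblasts with *Ptgs2* and 60.0 in those without it in library 1, and 54.5 against 36.0 in library 2. Adventitial fibroblasts gave 66.0 against 54.0 and 57.0 against 38.0. The part of tissue digestion in the *Ptgs2* level was not tested.

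The sequences just before the starts of both cyclooxygenase genes are shown because the genes share a reaction and differ in where they were measured. They are 250 bases, 5′ to 3′ on the forward strand, from RefSeq on GRCm38.p6, at chr2:36230176-36230425 for *Ptgs1* and chr1:150099781-150100030 for *Ptgs2*, and capitals mark a GC box.
Ptgs1: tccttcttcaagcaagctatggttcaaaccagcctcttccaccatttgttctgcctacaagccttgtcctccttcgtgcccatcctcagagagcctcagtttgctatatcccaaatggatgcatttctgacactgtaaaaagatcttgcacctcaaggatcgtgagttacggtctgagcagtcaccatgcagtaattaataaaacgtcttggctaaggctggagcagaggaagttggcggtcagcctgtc
Ptgs2: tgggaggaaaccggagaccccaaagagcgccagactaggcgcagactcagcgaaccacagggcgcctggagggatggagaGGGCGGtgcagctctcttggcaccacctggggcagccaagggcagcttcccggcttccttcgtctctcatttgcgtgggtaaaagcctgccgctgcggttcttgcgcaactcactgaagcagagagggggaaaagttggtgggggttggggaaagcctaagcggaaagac
Both strands of these windows were searched for 4 motifs, none of which holds another. The TATA box, searched as TATAAA, was held by 12.4% of 32851 such windows. For ACGTCA, the core of the cyclic AMP response element, the share was 6.47%. The E-box CACGTG was in 6.02% of them. A GC box, searched as GGGCGG, was in 32.7%. Of 8 members with a window in the table, 5 held the GC box, *Ptgs2* once at 170 bases before its start, and none held another of the motifs, *Ptgs1* having none of the 4. The letters describe the window only.

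*Ptgis* (ENSMUSG00000017969, chr2:167191805-167240604, reverse strand) encodes prostacyclin synthase. It was at 905 and 776 CPM in alveolar fibroblasts (840 ± 91.2, SD, n = 2 libraries) and at 916 and 841 CPM in adventitial fibroblasts (878 ± 53.0), ranges that overlapped. The fibroblast groups did not differ beyond their spread (log2 0.09, SE 0.21, adjusted p = 0.884). It was detected in 91.1% and 96.3% of alveolar and in 94.9% and 98.3% of adventitial fibroblasts, and in 81.2% and 75.5%, and 79.7% and 80.2%, after thinning to 2000 UMIs. The stromal cells with 1 or 2 *Dcn* UMIs, which belong to neither group, held 876 and 787 CPM, so the gene was even over the whole stroma and did not follow the *Dcn* division.

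Outside the stroma *Ptgis* was at 83.7 and 36.8 CPM in endothelial, 3.35 and 4.39 CPM in epithelial and 12.5 and 6.62 CPM in immune cells. The log2 differences from the alveolar level were -4.36 (SE 0.29, adjusted p = 1.1e-09), -7.39 (SE 0.32, adjusted p = 2.6e-12) and -6.28 (SE 0.31, adjusted p = 1.4e-11). They were of the size at which stromal transcripts were found in these groups at large. Endothelial *Ptgis* was 9.24% and 4.74% of the alveolar level, where the 6 stromal markers stood at 1.91% to 11.7% in library 1 and 2.19% to 6.73% in library 2. Epithelial *Ptgis* was 0.370% and 0.566% against 0.173% to 20.4% and 0.269% to 22.0%, and immune *Ptgis* 1.39% and 0.853% against 0.320% to 1.78% and 0.668% to 1.62%. *Col6a1*, which epithelial cells held at 84.2 and 109 CPM, sets the upper end of the epithelial ranges. The part of stromal transcripts in these values was not tested.

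**Figure D2:**
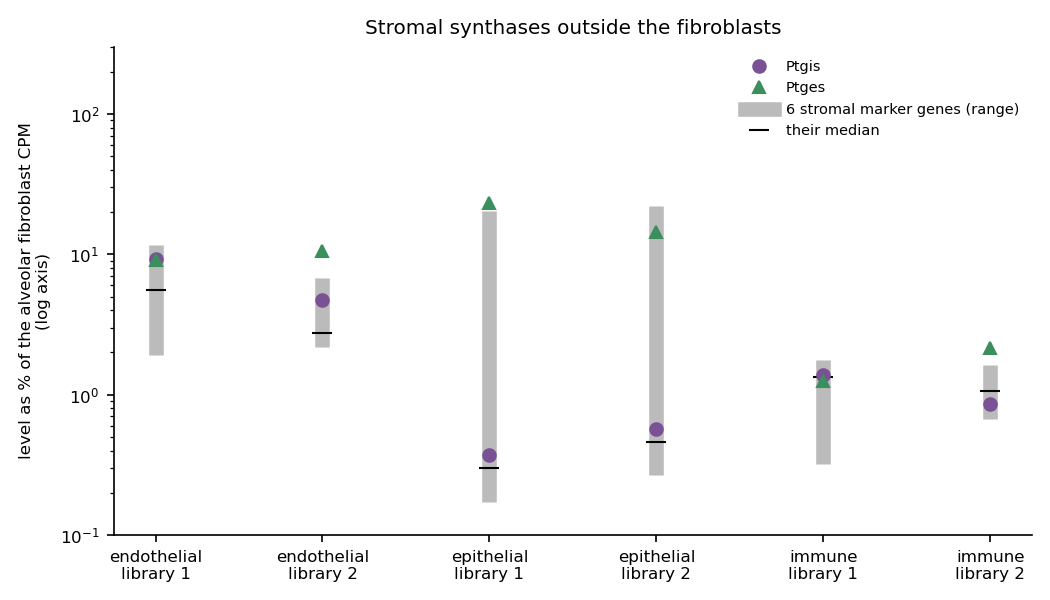
Level of *Ptgis* (circles) and *Ptges* (triangles) in endothelial, epithelial and immune cells of each library (x axis) as a percent of the alveolar fibroblast level (y axis, log scale), with grey bars for the range and a dash for the median of 6 stromal marker genes. *Ptgis* lies within the bar in all 6 cases, between 0.370% and 9.24%. *Ptges* lies above it in 3 of 6: epithelial cells of library 1 (184 UMIs), and endothelial and immune cells of library 2 (10 and 2 UMIs).

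*Ptges* (ENSMUSG00000050737, chr2:30889471-30929863, reverse strand) encodes the inducible membrane-bound prostaglandin E synthase. It was at 91.5 and 51.0 CPM in alveolar and at 61.9 and 45.6 CPM in adventitial fibroblasts, which did not differ (log2 -0.33, SE 0.19, adjusted p = 0.41). Library 1 was the higher one in both. Epithelial cells held 21.3 and 7.32 CPM and endothelial cells 8.37 and 5.41 CPM, all below either fibroblast group. The epithelial level differed from the alveolar one by -1.64 on the log2 scale (SE 0.23, adjusted p = 9.8e-06), or -2.31 without library 1, and the endothelial level by -3.46 (SE 0.38, adjusted p = 9.2e-07). Immune cells had 3 *Ptges* UMIs in all, and the alveolar level was 59.4 times theirs (counting interval 20.3 to 288). In epithelial cells *Ptges* stood at 23.2% and 14.4% of the alveolar level, where the 6 stromal markers stood at 0.173% to 20.4% and 0.269% to 22.0%, with medians of 0.302% and 0.458%. The value of library 1 thus lay above the range of the markers. That of library 2 lay within the range only through *Col6a1*, its upper end, and above all the other markers.

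*Ptgds* (ENSMUSG00000015090, chr2:25466709-25470046, reverse strand), the lipocalin-type prostaglandin D synthase, was nearly absent from the sort. It had 6 and 2 UMIs in epithelial cells, 0.694 and 1.46 CPM, and 0 in the other groups. In alveolar fibroblasts, a count of 0 over 62217955 UMIs allowed a level of up to 0.0482 CPM, taking 3 UMIs as the limit. The hematopoietic synthase of the same product, *Hpgds*, was instead seen in immune cells at 18.2 and 10.5 CPM, and at 2.16 CPM or less in the other groups.

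The receptor genes were low in all groups, and their levels had fewer UMIs behind them. *Ptgir* (ENSMUSG00000043017, chr7:16906490-16910905, forward strand), the prostacyclin receptor, was at 7.34 and 3.69 CPM in alveolar fibroblasts, 2.84 and 4.06 CPM in adventitial fibroblasts and 7.98 and 7.17 CPM in immune cells. Their ranges overlapped for the fibroblasts, and the adventitial difference was -0.51 (SE 0.36, adjusted p = 0.53), -1.29 without library 2 and 0.12 without library 1. Endothelial cells held 3 *Ptgir* UMIs and epithelial cells 1. The alveolar level was 3.32 times the endothelial one (counting interval 1.13 to 16.2) and 50.7 times the epithelial one (9.04 to 2009). Immune cells exceeded adventitial fibroblasts by 1.32 (SE 0.52, adjusted p = 0.0407), a call lost without the library block (adjusted p = 0.081) and in 3 other alternatives.

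*Ptger2* (ENSMUSG00000037759, chr14:44988195-45003820, forward strand) was a fibroblast transcript. It was at 25.1 and 31.7 CPM in alveolar and 13.9 and 26.9 CPM in adventitial fibroblasts, with overlapping ranges and a difference of -0.50 (SE 0.24, adjusted p = 0.286). Endothelial cells held 2 UMIs of it, epithelial cells 1 and immune cells 6, the latter all in library 2 at 3.31 CPM. The alveolar level was 28.7 times the endothelial one (counting interval 7.95 to 238) and 293 times the epithelial one (52.5 to 11566), and the immune level differed from it by -3.56 on the log2 scale (SE 0.52, adjusted p = 1.4e-05), a fit in which library 1 had no immune UMI.

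*Ptger4* (ENSMUSG00000039942, chr15:5206661-5244187, reverse strand) differed from *Ptger2* in its cells. It was at 19.5 and 18.1 CPM in alveolar fibroblasts, 33.0 and 33.7 CPM in adventitial fibroblasts and 36.5 and 52.4 CPM in immune cells, groups that did not overlap. The adventitial level was 1.81-fold the alveolar one (log2 0.85, SE 0.20, adjusted p = 0.0104), but the call was lost without the library block (adjusted p = 0.269). The immune level exceeded the alveolar one by 1.55 (SE 0.23, adjusted p = 2.9e-05) and the adventitial one by 0.69 (SE 0.23, adjusted p = 0.0204), the latter call being lost without the block (adjusted p = 0.118) and in 4 other alternatives. No *Ptger4* UMI fell in endothelial cells and 3 in epithelial cells. By the lower end of the counting interval, the level was at least 9.92-fold the endothelial one in alveolar fibroblasts. It was at least 17.8-fold in adventitial fibroblasts and at least 24.8-fold in immune cells. *Ttc33* lies opposite *Ptger4*, *Gm17173* opposite *Ptger2*, and *1110018N20Rik* and *Gm14291* opposite *Ptgis* in the annotation, and the strand setting of the counting is not given in the sources used here.

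*Hpgd* (ENSMUSG00000031613, chr8:56294585-56321043, forward strand) encodes the enzyme that starts the inactivation of prostaglandins by oxidising their 15-hydroxyl group. It was at 3246 and 4252 CPM in endothelial cells (3749 ± 711, SD, n = 2 libraries). The next groups were immune cells at 20.5 and 82.7 CPM and adventitial fibroblasts at 12.2 and 43.7 CPM, followed by alveolar fibroblasts at 4.91 and 13.5 CPM and epithelial cells at 2.66 and 5.86 CPM. Endothelial cells stood far above all others in both libraries, and in each of the 5 groups library 2 was the higher one. The endothelial level exceeded the alveolar one by 8.57 on the log2 scale (SE 0.34, adjusted p = 2.3e-12) and the adventitial one by 7.0 (SE 0.32, adjusted p = 1.4e-11). The immune difference from endothelial cells was -5.84 (SE 0.32, adjusted p = 2.9e-10), and -6.58 without library 2. *Hpgd* was detected in 94.6% and 96.9% of endothelial cells and in 1.94% and 6.93% of epithelial cells, which had the greater depth.

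Among the other groups *Hpgd* differed too. Adventitial fibroblasts exceeded alveolar ones by 1.56 (SE 0.27, adjusted p = 0.00068), a call lost without the library block (adjusted p = 0.391), where the gap between the libraries enters the spread. Immune cells exceeded alveolar fibroblasts by 2.73 (SE 0.30, adjusted p = 4.0e-07). As a share of the endothelial level, *Hpgd* was 0.375% and 1.03% in adventitial fibroblasts and 0.632% and 1.95% in immune cells. The 6 endothelial markers spanned 0% to 1.01% and 0.0532% to 0.629% of theirs in adventitial fibroblasts, and 0% to 0.461% and 0% to 1.03% in immune cells. *Hpgd* lay above the highest marker in immune cells of both libraries and in adventitial fibroblasts of library 2. The part of endothelial transcripts in the fibroblast values was not tested.

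*Slco2a1*, the transporter that brings prostaglandins into the cell for this oxidation, was highest in the same cells. It was at 502 and 967 CPM in endothelial, 86.9 and 81.3 CPM in epithelial and at most 3.86 CPM in the other cells. Endothelial cells exceeded alveolar fibroblasts by 8.35 (SE 0.39, adjusted p = 1.2e-11) and epithelial cells did so by 6.17 (SE 0.36, adjusted p = 8.9e-11), or by 5.37 without library 1 and 6.99 without library 2. The windows before both starts are shown because the genes share their highest group. They were taken as above, at chr8:56294302-56294551 for *Hpgd* and chr9:103008237-103008486 for *Slco2a1*, and capitals mark a GC box or a TATA box.
Hpgd: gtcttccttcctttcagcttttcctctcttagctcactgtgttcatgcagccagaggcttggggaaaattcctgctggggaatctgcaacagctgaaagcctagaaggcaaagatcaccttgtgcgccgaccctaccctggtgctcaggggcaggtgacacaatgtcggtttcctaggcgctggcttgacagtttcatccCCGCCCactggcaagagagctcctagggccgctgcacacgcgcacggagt
Slco2a1: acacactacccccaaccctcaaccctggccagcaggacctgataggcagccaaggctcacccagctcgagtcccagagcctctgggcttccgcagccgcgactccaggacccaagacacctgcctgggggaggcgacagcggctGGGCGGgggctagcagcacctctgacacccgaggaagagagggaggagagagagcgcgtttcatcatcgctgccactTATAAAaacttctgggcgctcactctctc
Both windows held a GC box, in *Hpgd* on the reverse strand 50 bases before the start and in *Slco2a1* on the forward strand 106 bases before it. Starts here are those of RefSeq. The *Hpgd* window ends at base 56294551, short of the gene start at 56294585 given above from another annotation. The *Slco2a1* window also held a TATA box, 29 bases before the start, and the *Hpgd* window did not.

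Counted over the members, adventitial fibroblasts had 3 of 8 tested members higher than alveolar ones (*Ptgs2*, *Ptger4* and *Hpgd*) and 0 lower, beside 8.71% of all 13326 genes called, 5.76% higher and 2.95% lower. Endothelial cells had 1 higher (*Hpgd*) and 4 lower, beside 33.0% of all genes called, 14.8% higher and 18.2% lower. Epithelial cells had 2 higher (*Ptgs1* and *Ptgs2*) and 5 lower, beside 51.1% called, 24.4% higher and 26.8% lower. The 5 lower ones took in *Ptgir*, *Ptger2* and *Ptger4*, with 1, 1 and 3 UMIs in epithelial cells. The 4 lower ones of endothelial cells also took in members with 3 or fewer UMIs there. In immune cells 3 were higher (*Ptgs2*, *Ptger4* and *Hpgd*) and 4 lower, beside 52.5% called, 24.2% higher and 28.3% lower. Calls were rare only between the fibroblast groups, and there those of *Ptger4* and *Hpgd* were lost without the library block. Over all genes, calls between these groups fell from 1161 to 254 without it. The members were chosen with earlier results of these data known, so no share here tests them as a set.

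Against adventitial fibroblasts the counts were 1 higher and 5 lower in endothelial cells (33.2% of all genes called, 14.4% higher and 18.8% lower), 2 higher and 6 lower in epithelial cells (48.2%, 22.8% and 25.4%) and 4 higher and 4 lower in immune cells (50.8%, 23.6% and 27.2%). *Hpgd* was thus the only tested member called higher in endothelial cells than in either fibroblast group. Epithelial cells had 3 members higher and 2 lower than endothelial cells (40.4%, 20.5% and 19.9%). Immune cells had 3 higher and 3 lower than endothelial cells (36.1% of all genes called), and 5 higher and 2 lower than epithelial cells (48.0%, 23.3% and 24.7%). The median log2 difference of the 8 members was 0.16 between the fibroblast groups, beside -0.03 for all genes. Against alveolar fibroblasts it was -2.62, -3.41 and -0.77 for endothelial, epithelial and immune cells, beside -0.18, -0.11 and -0.18. These medians, and the counts of members above, take in fitted values of members with 3 or fewer UMIs in a group.

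**Figure D3:**
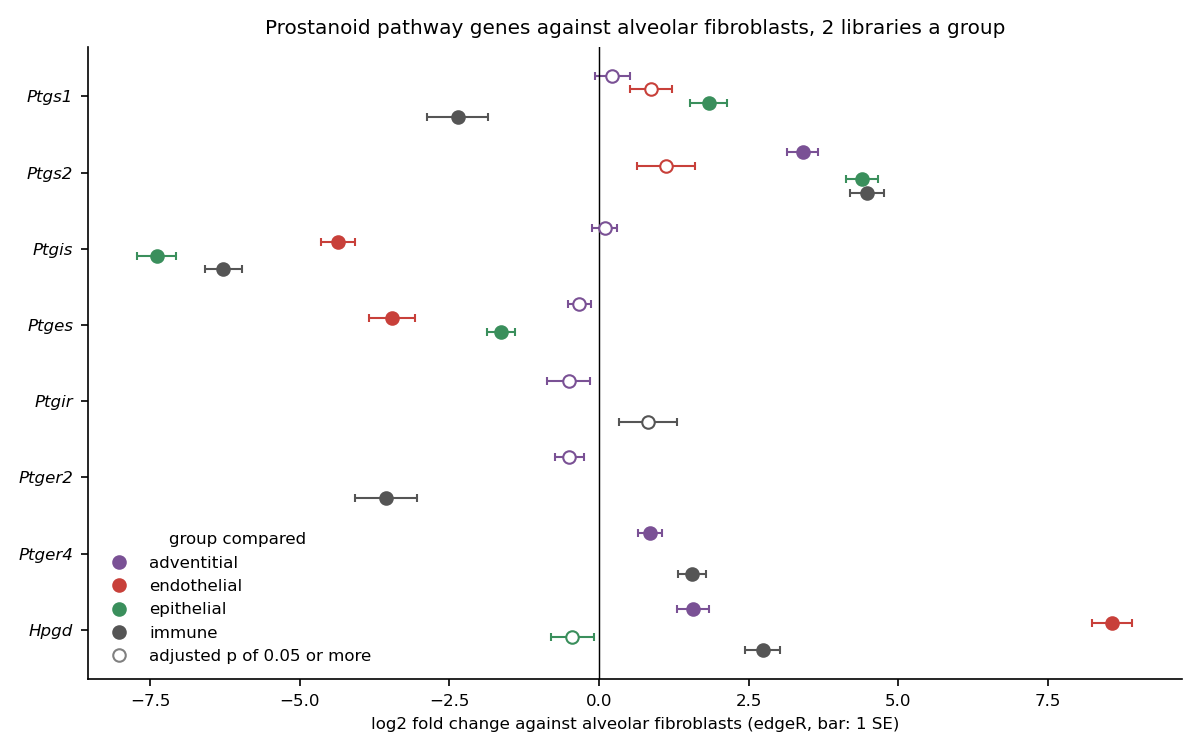
Log2 fold change (x axis) of each member (y axis) in the adventitial, endothelial, epithelial and immune groups against alveolar fibroblasts, with a bar of 1 SE, filled where the adjusted p is under 0.05 and left out where a group held 3 or fewer UMIs. *Hpgd* in endothelial cells is at 8.57 and *Ptgis* is at -4.36 to -7.39 outside the stroma, while *Ptgs2* is above 0 in all 4 groups and short of the threshold in endothelial cells (1.12).

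The levels of some members came from a few kinds of cell within a group, which were set apart by 3 markers each and are described without a test. Immune cells on a neutrophil list (*S100a8*, *S100a9*, *Retnlg*) held *Ptgs2* at 742 and 553 CPM, in 57.4% of 54 and 52.0% of 25 cells. Immune cells on any other single list were at 0 to 106 CPM. *Ptger4* was at 106 and 121 CPM in cells on a dendritic list (*Clec9a*, *Xcr1*, *Cd209a*), from 8 and 31 UMIs. *Hpgd* was at 109 and 243 CPM in cells on a C1q macrophage list (*C1qa*, *C1qb*, *C1qc*), where 25.6% of 39 and 61.1% of 18 cells held it, and in cells on a monocyte list (*Ifitm6*, *Gngt2*, *Ly6c2*) its level was 3.95 CPM in the first library and 218 CPM in the other. The libraries went together for *Ptgs2* in neutrophil-list and *Ptger4* in dendritic-list cells, and apart for *Hpgd* in monocyte-list cells.

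**Figure D4:**
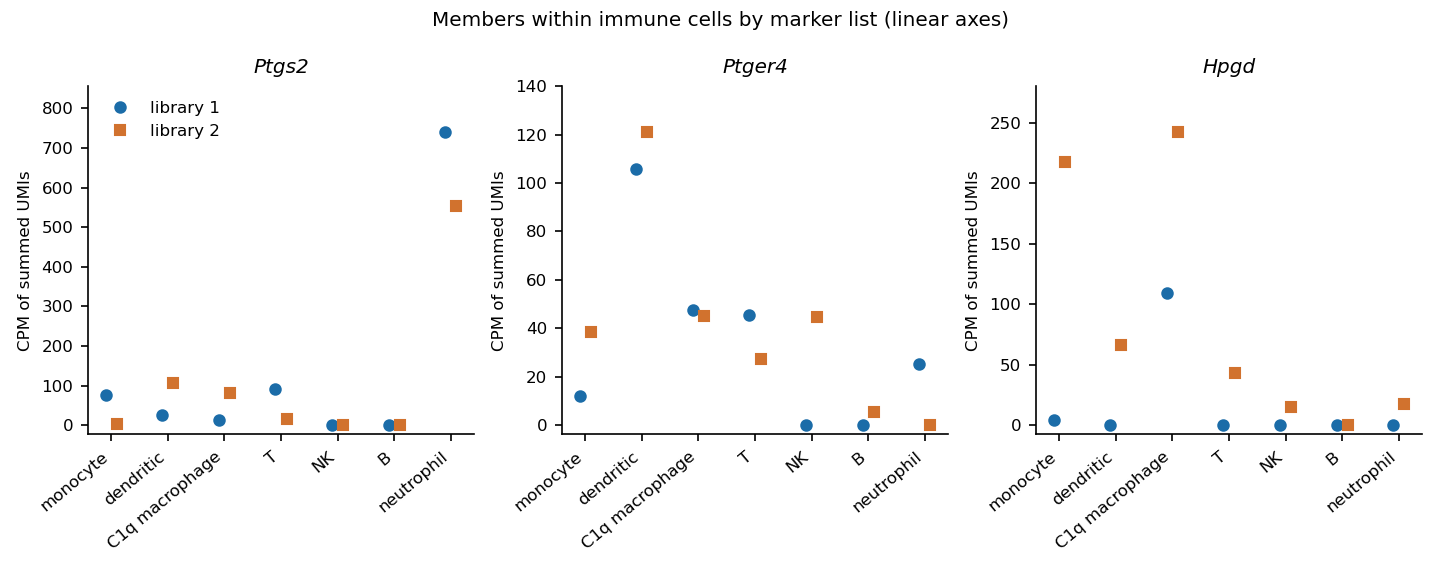
Level of *Ptgs2*, *Ptger4* and *Hpgd* (y axis, CPM of summed UMIs, linear) in immune cells of 7 marker lists (x axis), with a circle for library 1 and a square for library 2. *Ptgs2* is at 742 and 553 CPM in neutrophil-list cells, *Ptger4* at 106 and 121 CPM in dendritic-list cells, and *Hpgd* at 109 and 243 CPM in C1q macrophage-list cells.

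In endothelial cells, those on a general capillary list (*Gpihbp1*, *Plvap*, *Cd93*, 43 and 227 cells) held *Hpgd* at 3517 and 4729 CPM, and those on an aerocyte list (*Car4*, *Ednrb*, *Tbx2*, 11 and 28 cells) at 2502 and 3110 CPM. Both kinds of capillary cell thus carried it. *Ptgs1* was at 23.1 and 153 CPM in general capillary cells, from 2 and 149 UMIs, and at 0 in aerocytes. In library 2 a *Ptgs1* UMI was in 36.1% of general capillary cells (exact 95% interval 29.9% to 42.7%) and in 0 of 28 aerocytes, which allows a share of up to 12.3% by the same interval. Within adventitial fibroblasts, *Pi16*-positive cells (227 and 79) held *Ptgs1* at 13.3 and 22.9 CPM and *Pi16*-negative cells (790 and 919) at 46.5 and 55.3 CPM. *Ptgs2* was at 54.1 and 5.97 CPM in the former and 66.5 and 49.5 CPM in the latter. *Ptgis* did not separate these cells, with 947 and 820 against 907 and 843 CPM.

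The rest of the pathway was followed with a list of 46 genes, of which 44 were in the table and 36 passed the filter. Adventitial fibroblasts had 6 of these higher than alveolar ones and 2 lower, beside 5.76% and 2.95% of all genes. The higher ones were *Pla2g4a*, the cytosolic phospholipase that releases arachidonic acid (20.5 and 20.2 CPM against 6.23 and 7.40, log2 1.60, SE 0.25, adjusted p = 0.00027), *Ptgfrn*, *Tbxa2r*, *Akr1b8*, *Alox5ap* and *Ltc4s*. The 2 lower ones were *Pparg*, a nuclear receptor of fat-storing cells (1.42 and 0.863 against 10.5 and 3.04 CPM, log2 -2.37, SE 0.50, adjusted p = 0.0049), and *Pde3a*. Without the library block *Pla2g4a* (adjusted p = 0.047) and *Ltc4s* (0.0227) were still called and the other 6 were not (0.0609 to 0.435). *Pla2g4a* was the only phospholipase gene on the list that was called here. Of the others, *Pla2g4c*, *Pla2g5* and *Pla2g10* had 3, 3 and 0 UMIs over the 5 groups and were not tested. *Pla2g2d* was tested but had 18 UMIs over the 5 groups, most of them in immune cells. *Pla2g6* was at 3.16 and 3.02 CPM in adventitial against 3.88 and 3.33 CPM in alveolar fibroblasts.

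Among endothelial cells, 10 of the 36 genes were higher than in alveolar fibroblasts and 8 lower, beside 14.8% and 18.2% of all genes. Beside *Slco2a1*, the thromboxane receptor gene *Tbxa2r* was at 58.6 and 35.2 CPM (log2 3.26, SE 0.44, adjusted p = 9.4e-06, and 4.08 without library 2). As 3 UMIs are 25.1 CPM in endothelial cells of library 1, its level there and the 4.08 rest on few UMIs. *Pde3a*, which encodes a phosphodiesterase that breaks down cyclic AMP, was at 209 and 181 CPM (log2 4.21, SE 0.27, adjusted p = 1.3e-09). Receptors for prostacyclin and for prostaglandin E2 through EP2 or EP4 had 0 to 3 UMIs each in the same cells, as given above. Epithelial cells had 10 higher and 9 lower, beside 24.4% and 26.8% of all genes, with *Cbr2*, a carbonyl reductase, at 2247 and 3349 CPM against 8.53 and 6.65 CPM (log2 9.11, SE 0.38, adjusted p = 1.8e-12). Immune cells had 15 higher and 10 lower, beside 24.2% and 28.3% of all genes, and the leukotriene genes *Alox5ap* (800 and 469 CPM, log2 8.64, SE 0.35, adjusted p = 9.5e-13) and *Ltb4r1* (135 and 81.6 CPM) were among the higher ones.

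Fibroblasts also held receptors outside the 9 members. *Ptgfr*, the receptor for prostaglandin F2-alpha, was at 27.2 and 39.1 CPM in alveolar and 26.4 and 24.9 CPM in adventitial fibroblasts, and at 0 to 3.25 CPM in the other groups. *Ptger3*, which encodes the EP3 receptor that lowers cyclic AMP, was at 8.71 and 5.75 CPM in alveolar and 6.16 and 4.23 CPM in adventitial fibroblasts, with no UMI in endothelial or epithelial cells. Neither gene differed between the fibroblast groups (adjusted p = 0.53 and 0.52). *Ptges3*, a synthase gene that doubles as a cochaperone, was at 95 to 218 CPM in all 10 sums and passed the threshold in none of the 4 comparisons with alveolar fibroblasts.

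Whether a fibroblast held both steps of prostacyclin synthesis was read in cells thinned to 2000 UMIs. *Ptgis* and a cyclooxygenase (*Ptgs1* or *Ptgs2*) were found together in 5.44% and 6.61% of alveolar fibroblasts (exact 95% intervals 4.84% to 6.10% and 5.97% to 7.30%) and in 12% and 12.1% of adventitial fibroblasts (10.1% to 14.2% and 10.2% to 14.3%). The product of the separate shares would give 5.48% and 6.53%, and 11.6% and 12%, so the transcripts were found together about as often as their own shares set. At this depth the joint share counts capture as much as expression. In endothelial cells of library 2, *Ptgs1* and *Hpgd* were found together in 16.0% of 312 thinned cells, against a product of 15.7%. As *Hpgd* was in 98.1% of these cells, a joint share near the product was set in advance.

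For each member, the 3 genes with the closest pattern over the 10 sums were taken from the 6300 genes whose levels averaged 20 CPM or more, by Pearson's r of log2(CPM + 1). These are descriptions, since the 10 sums share 2 libraries and their depths. *Ptgis* went with the stromal genes *Bgn*, *Fxyd1* and *Rarres2* at r of 0.997 to 0.998. *Ptger2* went with *Abca8a*, *Scn3a* and *Pi15* (0.975 to 0.977) and *Ptges* with *Cnpy2*, *Hadh* and *Rab34* (0.980 to 0.987). *Ptger4* went with *Ctsb*, *Naaa* and *Aprt* (0.966 to 0.974), *Ptgir* with *Paxbp1*, *Sh3kbp1* and *Dock10* (0.960 to 0.981), and *Hpgd* with *Flii*, *Prkce* and *Strn4* (0.975 to 0.976). The value of r takes no account of the size of the differences. *Hpgd* ran from 2.66 to 4252 CPM over the sums, but *Flii* only from 43.0 to 83.7 CPM and *Strn4* from 17.6 to 50.3 CPM. The cyclooxygenases had the loosest matches: *Ptgs1* with *Anapc4*, *Zfp704* and *Cgnl1* (0.913 to 0.951) and *Ptgs2* with *Hacd2*, *Tuba1c* and *Pafah1b3* (0.816 to 0.864).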

How the data were processed

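The authors made 10x Genomics 3' v3.1 libraries and deposited, per library, raw counts of UMIs per gene and cell barcode (Cell Ranger 5.0.1 and build mm10 per the submitters' processing notes), without normalization. The totals were 48762735 UMIs over 9669 barcodes for library 1 and 93970185 over 10050 for library 2. Cells were kept from 200 genes up and to 10% of mitochondrial UMIs, and put into classes by the rule given with the groups. Barcodes with more than 1 class were left out, and no doublet caller was run. UMIs were summed per group and library. Pairs of groups were compared with edgeR 4.0.16 under R 4.3.3 (TMM factors, filterByExpr defaults, the two-sided quasi-likelihood test, a block for library, Benjamini-Hochberg adjustment, threshold 0.05). The block pairs groups of cells taken from the same library. CPM values carry no TMM factor. No fold fitted to both libraries is printed for a member where a group held 3 or fewer UMIs. A counting interval is the exact 95% interval of a ratio of 2 counts. For shares of cells, exact Clopper-Pearson intervals were used, and cells of 2000 or more UMIs were thinned to that number by seeded sampling. With the block, an overall gap between the 2 libraries is set aside. The p-values then measure how far the differences between groups varied over the libraries, estimated over all 5 groups together. That spread may be technical.

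The genes named are the members, a list of pathway genes, marker lists, and for each member the 3 genes of closest pattern. Members, groups and lists were chosen with earlier results of these data known. Alternatives were DESeq2 1.42.0 (its size factors, and its Wald test), no filter, no block, cells without UMIs of other classes, a 5% mitochondrial limit, thinning, *Dcn* of 10 or more for the adventitial group, and each library left out. The use of library totals without TMM factors was added after seeing the data. The fit was also run on simulated counts with known changes in the endothelial sums only. Those counts shared a mean profile over all groups and had no library effect. They therefore do not test the fit under differences as wide as those between the real groups. Positions are from GENCODE M21 on GRCm38, and the annotation behind the counts is not given in the sources used here.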

Additional observations from a re-analysis of the deposited data

Results flagged for a closer look

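Barcodes over both the stromal and the endothelial threshold belong to no group of the report, 89 in library 1 and 1144 in library 2. They carried both the synthase and the inactivating enzyme: *Ptgis* stood at 549 and 288 CPM in libraries 1 and 2, and *Hpgd* at 1180 and 2207 CPM. They were singled out because they are data that no comparison used. These values lie between those of fibroblasts and endothelial cells for both genes. Their median depth was 6025 and 16770 UMIs, against 3958 and 6545 in alveolar fibroblasts, 6034 and 10655.5 in adventitial fibroblasts and 1899.5 and 4028.5 in endothelial cells. Whether a barcode held 1 cell or more was not tested.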

How the results depend on the processing

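Of 55 log2 differences of members in which both groups held over 3 UMIs, 44 passed the threshold, and 54 kept their sign in every alternative that gave a test. The exception there was *Ptgs2* between immune and epithelial cells, 0.08 and not called, which became -0.10 with thinned cells. The 55 differences lost 10 calls without the library block, 5 with the DESeq2 Wald test, 5 with library totals, 4 in cells without UMIs of other classes, 2 of 52 with thinned cells, 1 without the filter on low counts, 1 with the 5% mitochondrial limit, and 0 with DESeq2 size factors or *Dcn* of 10 or more. Without replicate 2, *Ptgs1* in immune against endothelial cells turned from -3.23 to 0.44, its endothelial level resting there on 2 UMIs, and without replicate 1 it was -4.85. Of differences that were not called, *Ptgs1* in endothelial cells also changed sign without library 2, from 0.87 to -1.44 against alveolar and from 0.64 to -1.70 against adventitial fibroblasts, and *Ptgir* between the fibroblast groups went from -0.51 to 0.12 without library 1.

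Genes called between adventitial and alveolar fibroblasts fell from 1161 to 254 without the replicate block (207 higher and 47 lower) and to 617 with the DESeq2 Wald test, and those between epithelial and endothelial cells from 5382 to 3513 with thinned cells. The cause was not tested. Library 1 or 2 alone leaves no residual degrees of freedom, so leaving out a library gives values and no count. Library totals in place of TMM factors moved the median log2 of all genes from -0.11 to -0.66 for epithelial against alveolar cells, from -0.18 to -0.45 for immune and from -0.18 to -0.01 for endothelial against alveolar cells. The share called higher went from 47.7% to 24.9% for epithelial against alveolar, from 47.3% to 25.3% for epithelial against adventitial, from 50.8% to 23.2% for epithelial against endothelial, from 46.1% to 35.8% for immune against alveolar, from 50.3% to 31.5% for immune against endothelial, from 48.5% to 59.8% for immune against epithelial, from 43.3% to 54.4% for endothelial against adventitial and from 44.8% to 54.5% for endothelial against alveolar cells. Under totals *Ptgs1* between epithelial and endothelial cells was 0.23 (adjusted p = 0.64) and *Ptgs2* between epithelial and adventitial cells 0.47 (adjusted p = 0.13), and *Hpgd* became lower in epithelial than in alveolar cells (-1.02, adjusted p = 0.031).

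Depth limits the endothelial values of library 1 most: 3 UMIs there are 25.1 CPM, against 0.128 CPM in alveolar fibroblasts of the same library.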
